A study of Homo sapiens with 6 samples.

Results

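Insulin-like growth factor binding protein 4 (IGFBP4), the other members of the IGFBP family, both IGF receptors and the protease PAPPA were followed in HK-2 cells, an immortalized line of human proximal tubular cells. The set has 10 genes, IGFBP1 to IGFBP7, IGF1R, IGF2R and PAPPA, taken by symbol from a deposited table of 57905 genes. Each symbol matched a single row. IGFBP4 heads the set because it was lower after INO80 knockdown in these same libraries, so the differences between treatments are given for the members as a description, with no p-value, and counts of members called are printed beside the share of all genes called with nothing read from them. INO80 is the ATPase subunit of a chromatin remodeling complex. Pooled siRNAs against INO80 were transfected for 3 libraries, and a non-targeting pool (control siRNA) for the other 3. The labels give the control genotype as WT and the other as knockdown, and name no engineered allele. All cells grew in medium with fetal bovine serum, and were harvested 48 h after transfection. The model is therefore 1 cell line and 1 siRNA pool per arm, and nothing states whether the 3 replicates of a group came from separate experiments, so the spread between them may be technical.

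IGF-1 and IGF-2 are secreted growth factors that signal through the receptor tyrosine kinase IGF1R. The structurally unrelated IGF2R, the cation-independent mannose-6-phosphate receptor, carries IGF-2 and lysosomal enzymes into the cell and has no kinase. Outside the cell most IGF is held by the binding proteins IGFBP1 to IGFBP6, which keep it from the receptor and prolong its life. IGFBP4 mainly inhibits IGF action, and the metalloprotease PAPPA cleaves it and so frees the ligand. IGFBP7 binds IGF only weakly and is grouped with the family by its sequence. Tubular cells of the kidney express IGF receptors and secrete binding proteins of their own.

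The summed gene counts of a library ranged from 16829273 to 20311588 under control siRNA, and from 20678008 to 23784599 under INO80 siRNA. INO80 itself was at 49.9 ± 3.89 CPM (counts scaled to TMM library size) in the control libraries and at 13.3 ± 1.12 CPM in the knockdown libraries (SD, n = 3 each). On the log2 scale this was -1.90 with a standard error of 0.0956 (edgeR, adjusted p = 0.000161), lower in the libraries labelled as knockdown. Replicate 1 of both groups stood apart from the other 4 libraries on the first principal component. It was taken over genes with a mean FPKM (counts per kilobase of exon, scaled to the library total) of at least 1. Libraries of the same number also deviated together. The difference within each replicate pair is therefore given as well, beside a fit that blocks on the replicate number. Of 12 proximal tubule markers only GGT1 and MME reached a mean FPKM of 1, and AQP1, CUBN, LRP2 and SLC34A1 were at or near 0. The tubular origin named in the labels is thus not visible in most of its defining genes. Keratins were abundant, with KRT8 at a mean of 89.8 FPKM. Of the cadherins on the same list, CDH1 was all but absent, at a mean of 0.04 FPKM (0 to 0.08). CDH6 was at a mean of 24.2 FPKM. The markers of endothelium (3 genes), leukocytes (3), podocytes (2) and distal tubule (4) summed to at most 0.41 FPKM per library and list. Of 5 fibroblast markers only COL1A1 passed 1 FPKM, and the list summed to between 4.28 and 4.79 FPKM under control siRNA and to between 5 and 6.26 under INO80 siRNA; its part in the results was not tested.

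The promoters of IGFBP4, of its protease PAPPA and of IGFBP3, the family member with the highest level, are shown so that the starts of the genes described here can be compared. Each is the stretch of 250 bases that ends just before the start site, from RefSeq on GRCh38.p14, read 5′ to 3′ on the strand of the gene. Capitals mark TATAAA (searched on the sense strand) and GGGCGG (searched on both strands, so that its reverse complement CCGCCC is also in capitals).
IGFBP4 (chr17:40443200-40443449, plus strand): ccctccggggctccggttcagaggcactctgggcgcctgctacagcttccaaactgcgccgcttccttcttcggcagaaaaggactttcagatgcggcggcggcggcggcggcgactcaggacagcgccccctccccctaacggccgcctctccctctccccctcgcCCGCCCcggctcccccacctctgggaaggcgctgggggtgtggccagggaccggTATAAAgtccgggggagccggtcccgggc
PAPPA (chr9:116153541-116153790, plus strand): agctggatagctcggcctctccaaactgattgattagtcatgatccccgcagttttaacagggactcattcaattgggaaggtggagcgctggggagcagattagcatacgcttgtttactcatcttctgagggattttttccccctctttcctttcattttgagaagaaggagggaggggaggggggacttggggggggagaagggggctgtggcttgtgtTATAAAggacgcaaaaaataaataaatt
IGFBP3 (chr7:45921273-45921522, minus strand): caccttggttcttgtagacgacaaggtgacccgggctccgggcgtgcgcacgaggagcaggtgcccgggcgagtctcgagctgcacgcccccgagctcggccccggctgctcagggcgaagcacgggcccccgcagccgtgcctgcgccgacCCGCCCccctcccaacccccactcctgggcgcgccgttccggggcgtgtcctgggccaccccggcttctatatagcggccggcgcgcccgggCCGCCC
TATAAA lay 29 bases before the start site of IGFBP4 and 28 bases before that of PAPPA. Across all 35116 promoters of the same length in the table, 6.8% held it on the sense strand and 42.6% held GGGCGG on either strand. Promoters were listed for 8 of the 10 genes, 10 promoters in all, and no other member's promoter held TATAAA. IGFBP1 and IGFBP7 had no entry. The IGFBP4 promoter was 71.6% G and C with 24 CpG dinucleotides, and that of PAPPA was 48% G and C with 5, where the median of all promoters was 58% and 11. The promoters of IGF1R and IGF2R, at 81.2% and 79.2% G and C, were the richest among those listed. These matches describe the letters in this window and say nothing of binding.

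The levels of the 10 genes were compared per length, in FPKM. IGFBP3, the main carrier of IGF in serum, was the highest at a mean of 136.9 FPKM over the 6 libraries, with a range of 102.8 to 185.8. IGFBP7 followed at 115.5 FPKM (93.99 to 132.97), and the ranges of both genes overlapped. IGF2R came next at 70.7 FPKM (65.75 to 76.87), below every value of IGFBP7. IGFBP6, which prefers IGF-2 over IGF-1, was at 22.6 FPKM (17.39 to 28.49) and IGF1R at 6.87 FPKM (5.83 to 7.91), and neither range touched its neighbours. IGFBP4 at 3.06 FPKM (1.79 to 4.73), PAPPA at 2.53 (2.28 to 2.94) and IGFBP5 at 1.68 (0.78 to 3.09) overlapped each other. IGFBP1 was between 0.13 and 0.56 FPKM and IGFBP2 between 0 and 0.03. In FPKM, HK-2 cells thus held about 10 times as much IGF2R as IGF1R mRNA, a ratio between 9.72 and 11.6 in the 6 libraries. This ratio rests on exonic lengths of 9958 bases for IGF2R and 13509 for IGF1R. The canonical GENCODE transcripts have 14061 and 12235 bases, lengths at which the ratio would be lower.

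**Figure D1:**
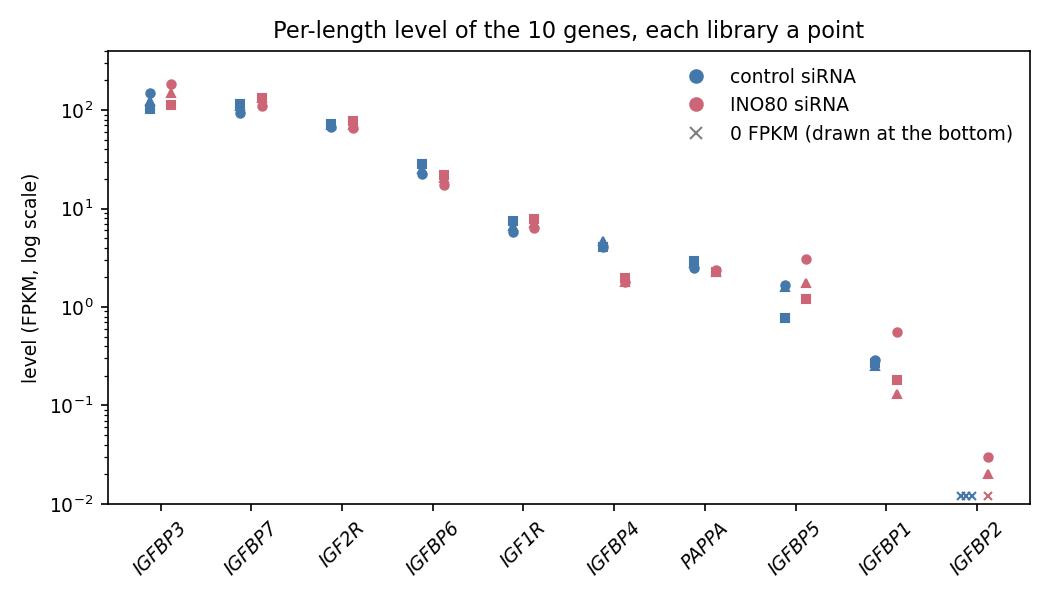
Level of the 10 genes per length (FPKM, log axis), ordered by the mean over 6 libraries; circles, squares and triangles are replicates 1, 2 and 3, blue for control siRNA and red for INO80 siRNA, and crosses at the bottom mark 0 FPKM. IGFBP3, IGFBP7 and IGF2R lie above 65 FPKM in every library, and of the genes below 65 FPKM IGFBP4 shows the widest gap between its colours.

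The question of the comparison was how these genes stood after INO80 knockdown. IGFBP4 was lower in every INO80 siRNA library than in any control siRNA library, and IGFBP6 and PAPPA were lower by less. IGFBP3, IGFBP5 and IGFBP7 were higher within each replicate pair, with groups that overlapped. So was IGF1R, by 0.08 to 0.12 on the log2 scale. IGF2R was close to its control level. In the fit with treatment alone, 1 of the 8 genes that passed the count filter had an adjusted p under 0.05 (edgeR, Benjamini-Hochberg over 15343 genes), against 1.75% of all genes tested and 1.49% when only lower genes are counted. With a limit of 1 on the log2 fold change as well, it was again 1 of 8 members against 0.0912% of all genes. With the replicate block, 3 members were called lower and 3 higher, against 13.4% lower and 11.4% higher of all genes, and 1 passed the fold limit, against 0.489%. Without control siRNA replicate 3, or without INO80 siRNA replicate 3, no member was called in the fit with treatment alone. Over the whole table these settings called 18 and 23 genes, against 268 with all libraries. The log2 fold change of IGFBP4 was then -1.15 and -1.18. As IGFBP4 was taken from this contrast and the family was listed with it known, nothing is read from these counts. The median log2 fold change of the 8 members was 0.06 and that of all tested genes 0.01. IGFBP1 and IGFBP2 were under the filter.

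IGFBP4 (ENSG00000141753, chromosome 17, 38599702 to 38613983, plus strand, GRCh37) was counted 150, 182 and 201 times in control siRNA replicates 1, 2 and 3 and 82, 103 and 94 times in INO80 siRNA replicates 1, 2 and 3. In CPM these were 9.15, 8.91 and 10.4 against 4.08, 4.26 and 3.88. All 3 knockdown libraries lay below all 3 control libraries, and the replicates of each group lay close together. The means were 9.48 ± 0.799 and 4.07 ± 0.192 CPM (SD, n = 3 each), so the level under INO80 siRNA was 0.43 times that under control siRNA. The log2 fold change was -1.22 (standard error 0.134), or -1.22 (standard error 0.132) with the replicate block. Within replicate pairs 1, 2 and 3 the log2 difference was -1.17, -1.06 and -1.42. Leaving out replicate 1 of both groups gave -1.25. IGFBP4 was lower in 3 of 3 pairs.

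**Figure D2:**
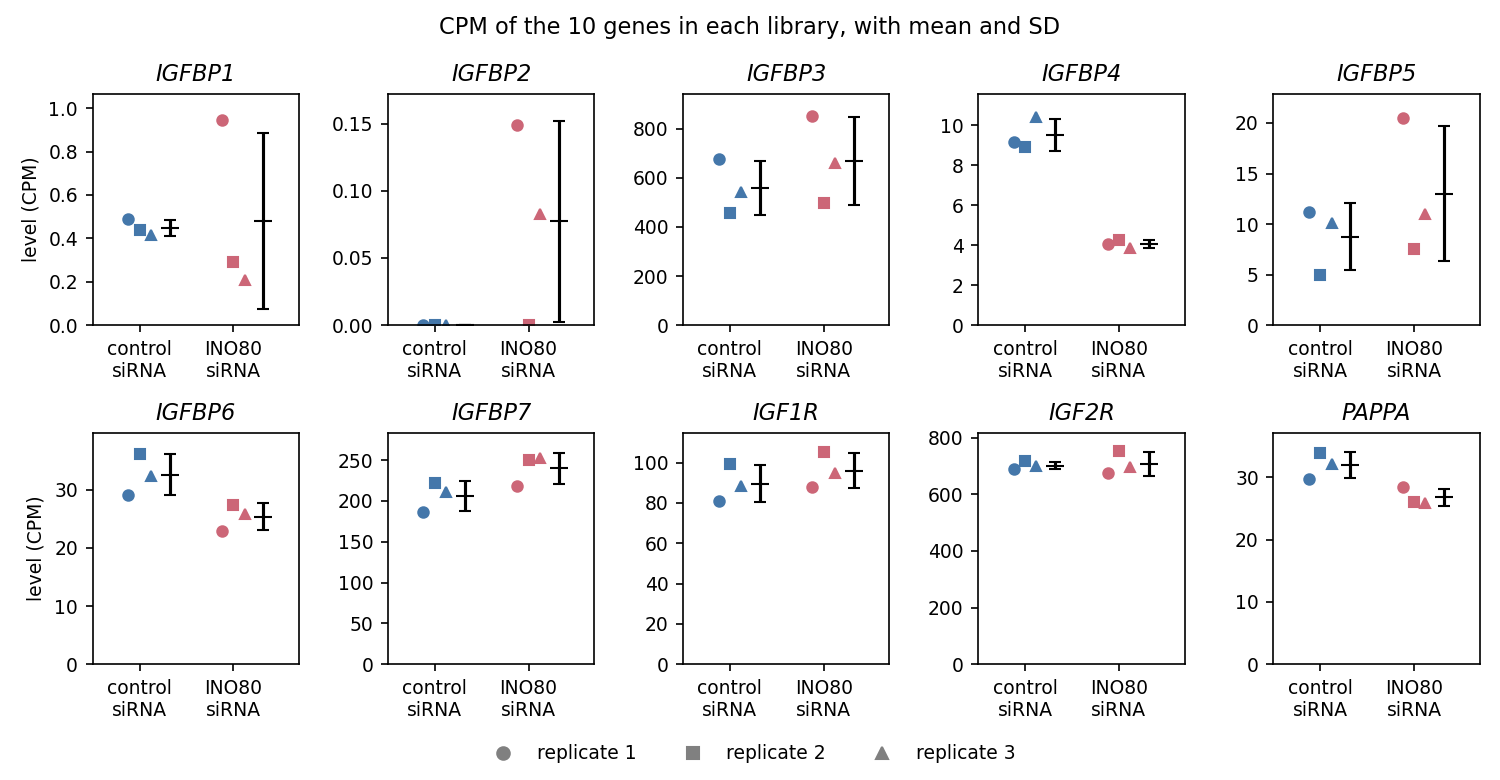
Level of each of the 10 genes (CPM, linear axes from 0) in each library; symbols are replicates 1 to 3, and the black bars give the mean and SD of each group (n = 3). IGFBP4 parts cleanly, at 8.91 to 10.4 CPM against 3.88 to 4.26, IGFBP6 and PAPPA part by a small gap, and in IGFBP3 and IGFBP5 replicate 1 is the highest and replicate 2 the lowest of both groups.

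IGFBP6 was the other binding protein at a lower level. It was at 29.2, 36.2 and 32.3 CPM in control siRNA replicates 1, 2 and 3 and at 22.9, 27.4 and 25.8 CPM in INO80 siRNA replicates 1, 2 and 3. The groups did not overlap, though the lowest control library and the highest knockdown library were close. The log2 fold change was -0.36 (standard error 0.105), and the pairs gave -0.35, -0.40 and -0.32. PAPPA, the protease of IGFBP4, was at 29.8, 33.9 and 32.1 CPM against 28.4, 26.0 and 25.9 CPM. It was also without overlap, at -0.26 on the log2 scale (standard error 0.0815), and pair 1 differed least, at -0.07 against -0.38 and -0.31 in pairs 2 and 3. Without replicate 1 of both groups its log2 fold change was -0.35. Of the 8 tested members these 3 had groups that did not overlap in CPM, all of them lower, where 11.5% of all genes tested were lower without overlap and 22.8% were without overlap in either direction.

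IGFBP4 and PAPPA, substrate and protease, were also set side by side per length in each library. Under control siRNA IGFBP4 was at 4.03, 4.05 and 4.73 FPKM and PAPPA at 2.51, 2.94 and 2.79, so that there was between 0.59 and 0.726 times as much PAPPA as IGFBP4. Under INO80 siRNA IGFBP4 was at 1.79, 1.96 and 1.79 FPKM and PAPPA at 2.38, 2.28 and 2.28, a ratio between 1.16 and 1.33. IGFBP4 mRNA was thus above that of its protease in all 3 control libraries and below it in all 3 knockdown libraries. IGFBP4 was taken for its lower level in these libraries, so the change in this ratio is no separate result. The point of crossing also rests on FPKM, compared between exonic lengths of 2211 bases for IGFBP4 and 11573 for PAPPA.

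IGFBP3, IGFBP5 and IGFBP7 were higher in each pair. IGFBP3 was at 675.1, 456.5 and 542.8 CPM under control siRNA and at 853.5, 496.1 and 658.7 CPM under INO80 siRNA. Replicate 1 was the highest and replicate 2 the lowest in both groups, so that the groups overlapped although every pair differed the same way, by 0.34, 0.12 and 0.28 on the log2 scale. The fitted log2 fold change was 0.26 (standard error 0.198) with treatment alone and 0.25 (standard error 0.0362) with the replicate block. IGFBP5, a binding protein that adheres to extracellular matrix, was at 11.2, 4.99 and 10.1 CPM against 20.4, 7.58 and 10.98 CPM. Its pairs differed by 0.87, 0.60 and 0.12 (log2), and its log2 fold change was 0.57 (standard error 0.39), or 0.53 (standard error 0.121) with the block. Single libraries moved both values: without INO80 siRNA replicate 1 the log2 fold change of IGFBP5 was 0.09 and that of IGFBP3 0.05, and without INO80 siRNA replicate 2 they were 0.85 and 0.44. Without control siRNA replicate 2 they were 0.28 and 0.14, and without control siRNA replicate 1 that of IGFBP3 was 0.42. Without replicate 1 of both groups IGFBP5 was at 0.30 (0.31 with the block). IGFBP7 was at 186.4, 221.6 and 210.4 CPM against 218.1, 249.9 and 252.2 CPM, where the highest control library just overlapped the lowest knockdown library. Its pairs differed by 0.23, 0.17 and 0.26 (log2), and the fit gave 0.22 (standard error 0.0841).

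The spread between replicates was uneven across the family. The within-group SD of log2 CPM was 0.673 for IGFBP5 and 0.341 for IGFBP3, above 96.9% and 82.9% of all tested genes counted from the least to the most variable. For IGFBP4 it was 0.0958 and for IGF2R 0.062, at 30.1% and 12.9% of that order. IGFBP3 and IGFBP5 deviated in the same libraries. Relative to its group mean, IGFBP3 was off by 0.29, -0.27 and -0.02 log2 units in control replicates 1, 2 and 3 and by 0.39, -0.40 and 0.01 in the knockdown replicates. IGFBP5 was off by 0.43, -0.72 and 0.29, and by 0.77, -0.65 and -0.12. IGFBP6, IGFBP7 and IGF1R went the other way, lowest in replicate 1 and, but for IGFBP7 under INO80 siRNA, highest in replicate 2. What the libraries of one number share was not stated, and its part in these levels was not tested.

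IGF1R was at 80.9, 99.4 and 88.6 CPM under control siRNA and at 87.8, 105.2 and 94.9 CPM under INO80 siRNA. The groups overlapped, and the log2 fold change was 0.10 with a 95% interval from -0.12 to 0.31. All 3 pairs were higher, by 0.12, 0.08 and 0.10 (log2), and the fit with the replicate block gave 0.10 with a standard error of 0.0422. Without 1 library the value for IGF1R ranged from 0.03 to 0.18. IGF2R was at 689.1, 715.9 and 698.8 CPM against 673.4, 753.2 and 695.3 CPM, the most even of the 10 genes, with a log2 fold change of 0.01 and a 95% interval from -0.12 to 0.15. It was lower in 2 pairs and higher in 1. Both intervals are from the fit with treatment alone, which includes the spread between replicate numbers.

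**Figure D3:**
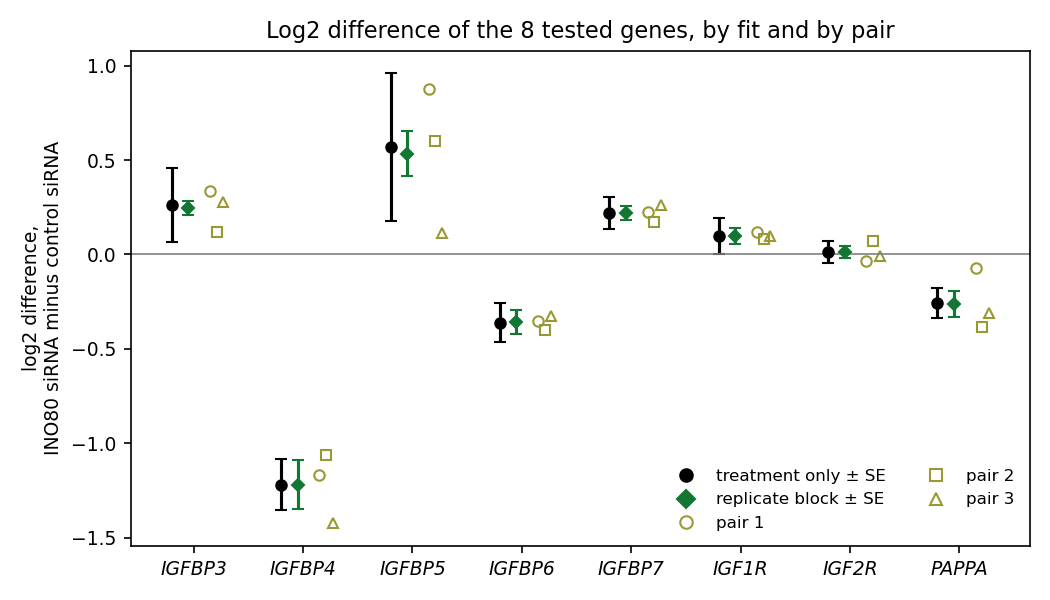
Log2 difference, INO80 siRNA minus control siRNA, of the 8 genes that passed the count filter, as fitted with treatment alone (black circles) and with the replicate block (green diamonds), both with standard errors, and within each replicate pair (open symbols). IGFBP4 lies at -1.22 with all pairs under -1, the block shortens the bar of IGFBP3 from 0.198 to 0.0362, and both receptors lie close to 0.

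IGFBP1 and IGFBP2 had too few reads to compare. IGFBP1, a binding protein that insulin represses in liver, was counted 8, 9 and 8 times under control siRNA and 19, 7 and 5 times under INO80 siRNA, so only replicate 1 of the knockdown was higher. IGFBP2 was counted 0 times in all 3 control siRNA libraries and 3, 0 and 2 times under INO80 siRNA. A count of 0 allows up to 3 counts, so no difference was detectable at this depth. IGFBP1 lies 18682 bases from IGFBP3 on chromosome 7, and IGFBP2 lies 7669 bases from IGFBP5 on chromosome 2 (GRCh37 coordinates of the table). In both pairs of neighbours the second gene named had the higher level, with IGFBP3 at a mean of 136.9 FPKM and IGFBP5 at 1.68.

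The binding proteins that hold IGF with high affinity, IGFBP1 to IGFBP6, were also summed per length. Their sum was 175.5, 136.4 and 154.3 FPKM in control siRNA replicates 1, 2 and 3 and 208.7, 138.0 and 174.5 FPKM under INO80 siRNA, and these groups overlapped. IGFBP3 made up 79.5 ± 4.28% of the sum in control and 85.7 ± 3.64% in knockdown libraries (SD, n = 3 each). IGFBP6 made up 16.7 ± 4.12% and 12.0 ± 3.73%. IGFBP4 made up 2.78 ± 0.419% and 1.10 ± 0.289%, with control libraries between 2.30% and 3.07% and knockdown libraries between 0.858% and 1.42%. IGFBP4 was thus a small part of the summed IGFBP mRNA in either state, and the sum was highest in replicate 1 and lowest in replicate 2 of both groups, as IGFBP3 was.

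**Figure D4:**
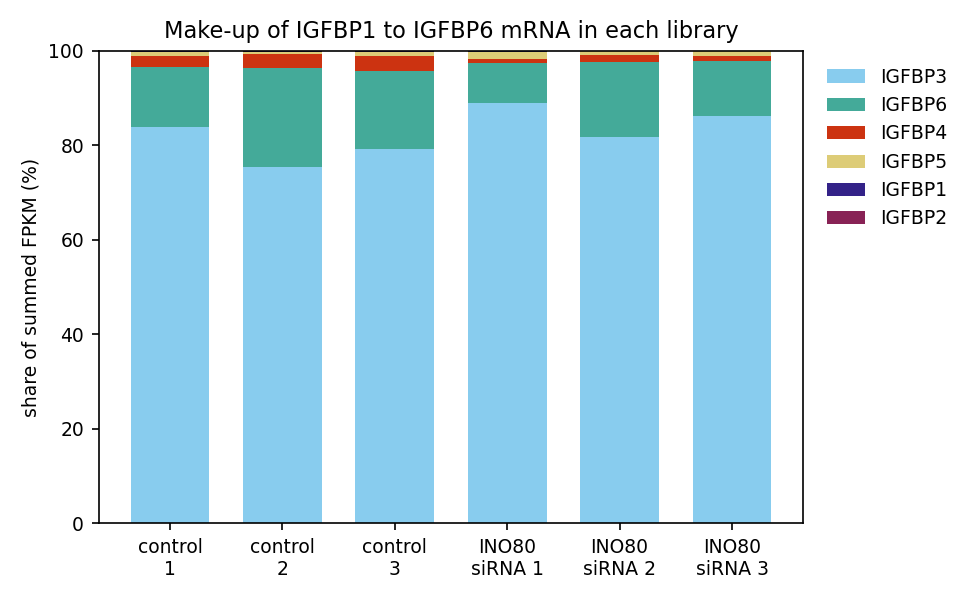
Make-up of the summed FPKM of IGFBP1 to IGFBP6 in each library, in percent, stacked from IGFBP3 at the bottom. IGFBP3 fills 75.4% to 89.0% of each bar, and the red band of IGFBP4 is 2.30% to 3.07% of the control bars and 0.858% to 1.42% of the knockdown bars.

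Among 12144 other genes with a mean of at least 1 FPKM, those whose profile over the 6 libraries was most like that of IGFBP4 were NABP2, PLA2G15, GPHN, ARHGAP19 and RP11-438N16.1. The measure was the root-mean-square difference between log2 CPM profiles, each centred on its own mean, and it was 0.0909, 0.115, 0.139, 0.161 and 0.162 in that order. NABP2 encodes a single-stranded DNA-binding subunit, PLA2G15 a lysosomal phospholipase and GPHN the scaffold gephyrin. NABP2 was at 32.2 CPM on average under control siRNA and 13.2 under INO80 siRNA. All 5 genes were lower under INO80 siRNA, at log2 fold changes from -1.37 (ARHGAP19) to -1.04 (PLA2G15). IGFBP4 was taken for its lower level in these libraries, so the measure favours genes that were lower in the same contrast. The likeness is therefore no separate result, and shared regulation was not tested. Without replicate 1 of both groups, 3 of the 5 genes were again among the nearest 5, and for profiles in log2(FPKM + 1) the number was 2.

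The 7 bases AACGGCA, chosen with earlier results of these data known, were searched on the sense strand of the canonical GENCODE transcripts on hg38. They were found in 2 of the 10 genes, in the coding sequence of IGFBP4 (exon 3 of 4) and, at 2 places, of IGF1R (exons 3 and 9 of 21). The sites are shown with the 7 bases in capitals, and the second IGF1R site was taken since the first spans an exon junction.
IGFBP4 (chr17:40454028-40454057, plus strand): actgcgaccgcAACGGCAacttccacccca
IGF1R (chr15:98916036-98916065, plus strand): cctctctgcccAACGGCAacctgagttact
Of 12646 tested genes with such a transcript, 8.67% held the sequence anywhere and 6.58% held it in the coding sequence. IGFBP4, with 1 copy, was at a log2 fold change of -1.22, and IGF1R, with 2 copies, at 0.10. IGFBP6 and PAPPA, the other members with lower levels, held none. The part of this sequence in the level of IGFBP4 was not tested.

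The genes around IGFBP4 were chosen by position. The table lists 18 other genes within 200 kb of it, of which 10 passed the count filter, and none of the 10 had an adjusted p under 0.05 in edgeR with treatment alone, in DESeq2 or in limma. At an unadjusted p under 0.05 there was 1, CTD-2267D19.3, which was at 2.43 ± 0.182 FPKM in control and 3.16 ± 0.115 FPKM in knockdown libraries (SD, n = 3 each; log2 fold change 0.37, standard error 0.136, adjusted p = 0.227, edgeR). With the replicate block it passed in edgeR, at an adjusted p of 0.043, while DESeq2 with the block called none of the 10. TOP2A, the mitotic DNA topoisomerase and the nearest tested neighbour at 25500 bases, had a log2 fold change of 0.03 (standard error 0.0776). RARA, the retinoic acid receptor, was at -0.07 (standard error 0.0933), CDC6, a replication licensing factor, at -0.06 (standard error 0.088), WIPF2 at -0.05 (standard error 0.0551) and SMARCE1, a subunit of another remodeling complex, at -0.12 (standard error 0.0639). The remaining 4, CTD-2267D19.6, CTD-2267D19.2, GJD3 and KRT222, were at mean levels of at most 1.51 FPKM in either group and at log2 fold changes of -0.24, 0.01, 0.26 and 0.60. None of the neighbours was called lower.

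The rest of the IGF axis was taken from 6 lists of 56 genes in all, of which 43 passed the count filter. With treatment alone none had an adjusted p under 0.05 in edgeR or in limma. In edgeR 7 had an unadjusted p under 0.05, where 16.4% of all genes had one. DESeq2 with treatment alone called 3, where it called 610 genes over the whole table. Among the 3 were C1S (adjusted p = 0.0488, DESeq2) and RICTOR (adjusted p = 0.0468, DESeq2). With the replicate block edgeR called 15 of the 43, 4 lower and 11 higher, against 24.8% of all genes. DESeq2 with the block called 10, and GRB10, PAPPA2, CTGF and MTOR were not among them. The median log2 fold change of the 43 genes was 0.01, with a range from -0.44 to 0.71.

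The ligands were all but absent. IGF1 was counted between 2 and 5 times and IGF2 between 0 and 4 times per library, IGFALS, which holds IGF in a ternary complex with IGFBP3 or IGFBP5, at most 2 times, and INS not at all. IGF protein from the serum in the medium was not measured. Of the insulin receptor family and its adaptors 7 of 9 genes were tested. The insulin receptor INSR was at 1.09 ± 0.146 FPKM under control siRNA and 1.27 ± 0.339 under INO80 siRNA, below IGF1R in each group. With treatment alone none was called. With the replicate block 2 of the 7 rose, where 11.4% of all genes did. These were SHC1, an adaptor that links receptors to Ras (log2 fold change 0.22, standard error 0.0373, adjusted p = 6.9e-05, edgeR with the block), and GRB10, an adaptor that restrains the receptors (0.20, standard error 0.07, adjusted p = 0.0327, edgeR with the block; adjusted p = 0.86 without it). The insulin receptor substrate IRS1 was at -0.11 (standard error 0.0438, adjusted p = 0.0766, edgeR with the block), and INSR at 0.22 (standard error 0.098, adjusted p = 0.107).

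Among the listed proteases that cut IGFBPs and their inhibitors, 9 of 11 genes were tested. All 9 had a log2 fold change above 0, with a median of 0.19, against 0.01 for all tested genes. PAPPA, a protease counted with the members and not on this list, was at -0.26 (standard error 0.0815). ADAM9, on the list, was at 0.01 (standard error 0.0834). How many of all tested genes lay above 0 is not given here. With treatment alone none of the 9 was called. With the block 5 of the 9 rose and none fell, where 11.4% of all genes were called higher and 13.4% lower. C1S, a complement protease that can cut IGFBP5, was at 17.9, 22.4 and 18.001 CPM in the control siRNA replicates and at 22.3, 29.1 and 29.5 CPM in the INO80 siRNA replicates, overlapping by a small margin (log2 fold change 0.47, standard error 0.0777, adjusted p = 5.1e-05, edgeR with the block; adjusted p = 0.135 without it). MMP7, a matrix metalloprotease, was at 15.3, 22.4 and 38.4 CPM against 17.9, 28.8 and 56.5 CPM, higher in each pair over a wide spread between pairs (0.42, standard error 0.0693, adjusted p = 6.3e-05, edgeR with the block). CTSD, the lysosomal protease cathepsin D, was higher by 0.17 (standard error 0.0318, adjusted p = 0.000184, edgeR with the block) and ADAM12 by 0.18 (standard error 0.0409, adjusted p = 0.00188, edgeR with the block). PAPPA2, the relative of PAPPA that cuts IGFBP3 and IGFBP5, was the fifth, at only 16 to 156 counts per library. STC2, an inhibitor of PAPPA, was abundant at 37.6 ± 2.90 and 38.6 ± 2.10 FPKM (SD, n = 3 each), at a fitted difference of 0.02 on the log2 scale, and STC1, the other such inhibitor, had no counts.

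Other proteins with an IGFBP-type domain at their start include the CCN family, listed under its older symbols. Of 12 genes listed for such a domain, 8 were tested. With the replicate block 2 of them were called lower and 1 higher, against 13.4% and 11.4% of all genes. CYR61 was at 826.9 ± 43.97 FPKM in control and 751.2 ± 99.3 FPKM in knockdown libraries (SD, n = 3 each), above every IGFBP. With the block CYR61 and NOV fell, by 0.15 (standard error 0.0352, adjusted p = 0.00173, edgeR) and by 0.39 (standard error 0.0672, adjusted p = 8.4e-05, edgeR) on the log2 scale, and CTGF rose by 0.22 (standard error 0.056, adjusted p = 0.00546, edgeR). Without the block their adjusted p-values were 0.573, 0.28 and 0.349 (edgeR). CRIM1 followed with 0.07 (standard error 0.0369, adjusted p = 0.181, edgeR with the block). Of the 3 IGF2 mRNA-binding proteins, oncofetal regulators of mRNA that are no relatives of the IGFBPs, IGF2BP2 was at 48.2 and 50.5 FPKM, IGF2BP1 at 16.9 and 16.3 and IGF2BP3 at 7.25 and 6.81 in control and knockdown cells, and none was called with or without the block.

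In the PI3K-AKT-mTOR arm, which carries the signal of IGF1R to growth and survival, 16 gene rows of 17 symbols were tested. With the block 2 of the 16 fell and 3 rose, where 13.4% of all genes were called lower and 11.4% higher. RICTOR, the defining subunit of mTOR complex 2, was at 49.95, 39.991 and 37.8 CPM against 34.1, 33.2 and 29.6 CPM, without overlap (log2 fold change -0.39, standard error 0.062, adjusted p = 3.4e-05, edgeR with the block; adjusted p = 0.13 without it). AKT2 was higher by 0.24 (standard error 0.0431, adjusted p = 0.00018, edgeR with the block; adjusted p = 0.0997 without it) and MTOR by 0.12 (standard error 0.0373, adjusted p = 0.016, edgeR with the block).

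**Figure D5:**
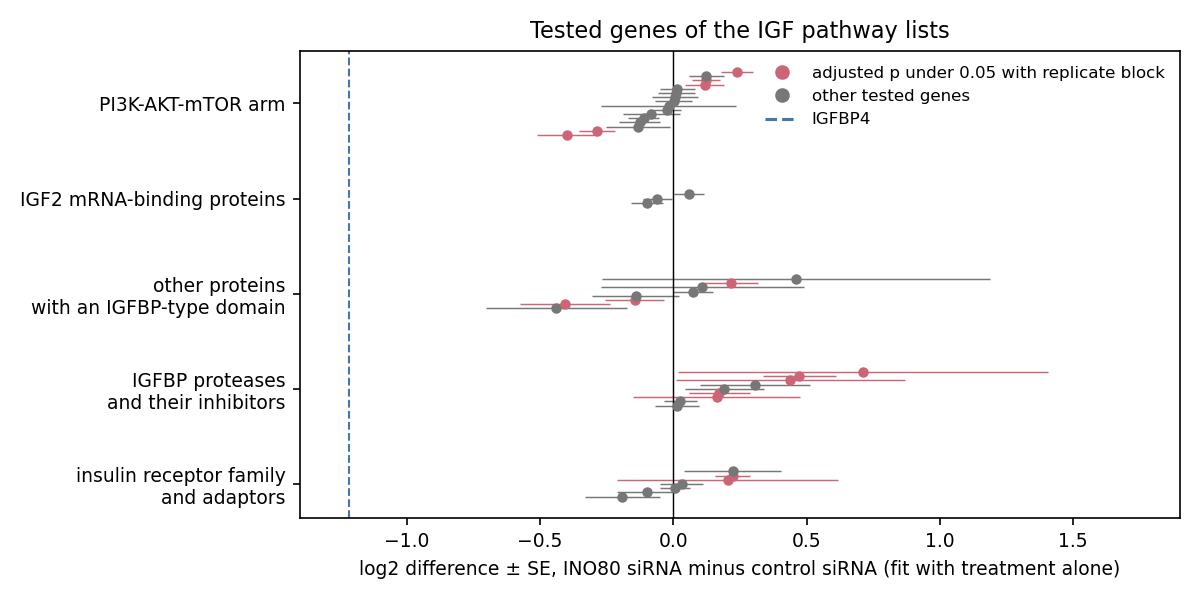
Log2 difference with standard error, INO80 siRNA minus control siRNA in the fit with treatment alone, of the 43 tested genes of the IGF pathway lists, one row of points per list; red points had an adjusted p under 0.05 with the replicate block and the dashed line is IGFBP4 at -1.22. The points lie between -0.44 and 0.71, and all 9 proteases and inhibitors of that list lie above 0. The list does not hold PAPPA, a member at -0.26.

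Some counts may be shared between genes. IGFBP1 to IGFBP4 and IGFBP6 overlap no other listed gene in span. IGFBP7 overlaps POLR2B on the opposite strand, and IGF2R overlaps RP11-288H12.3 and RP11-288H12.4 on its own strand, which had 149.3 and 72.2 counts per library on average. The library kit keeps strand, but whether the counting used it is not given in the sources used here. In whole-culture RNA a lower level in every cell and fewer cells with the RNA cannot be told apart.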

How the data were processed

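RNA-seq (poly(A) selection, directional library kit, paired ends) was analysed for 3 control siRNA and 3 INO80 siRNA libraries of HK-2 cells. Per library, the table that the authors deposited gives each gene's raw count and its FPKM. The submitters' processing notes name HISAT2 2.0.1, HTSeq and hg19, while the paper's methods name ELAND and hg38. The deposited FPKM equal the count divided by exonic length and library total in all 347430 values (to within 0.006), so they hold no scaling beyond the total count.

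Counts were compared in R 4.3.3 with edgeR 4.0.16 (filterByExpr, TMM, quasi-likelihood test, treatment alone), adjusted by Benjamini-Hochberg over 15343 genes. CPM used the TMM-scaled library sizes. The number of reads limits precision most for IGFBP1, IGFBP2 and IGFBP4, and the limit for a count of 0 covers counting error only. DESeq2 1.42.0 and limma 3.58.1 on log2(FPKM + 1) or log2(FPKM + 0.1) were alternatives, besides other filters and scalings, the replicate block and left-out libraries. The steps were tested on simulated data, in which the planted changes were larger than the differences described here. That test does not bear on small differences. Same-numbered libraries of both groups deviated together (correlation across genes 0.581, 0.365 and 0.36 for replicates 1, 2 and 3), so the numbers were taken to pair them. Control replicate 2 with INO80 siRNA replicate 3 gave 0.152, and control replicate 3 with INO80 siRNA replicate 2 gave 0.129. Replicate 1 of either group with another number gave -0.397 to -0.361. Replicates 2 and 3 were thus told apart less clearly than replicate 1. The block stayed an alternative since no pairing is named in the methods.

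The members and lists were chosen with earlier results of these data known. Named are the members, INO80, the 5 genes most like IGFBP4, tested genes within 200 kb of it and, per list, genes with an adjusted p under 0.05 and up to 4 with the smallest p under the block, apart from genes that are not reported here; others were named after their values were seen. PECAM1, a planned endothelial marker, was not analysed here. Outliers were not tested in groups of 3.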

Additional observations from a re-analysis of the deposited data

How the results depend on the processing

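The log2 fold change of IGFBP4 was between -1.26 and -1.15 with each library left out in turn, and -0.89 with limma on log2(FPKM + 1), where the pseudocount shrinks differences of low genes. For INO80 it was between -1.98 and -1.47 over 17 alternatives. IGF2R lay between -0.03 and 0.05, and every other tested member kept its sign in all 17, though IGFBP5 ranged from 0.09 to 0.85 and IGFBP3 from 0.05 to 0.44, lowest without INO80 siRNA replicate 1 and highest without INO80 siRNA replicate 2. Genes called over the whole table (268) numbered 708 without a count filter, 3798 with the replicate block, 610 with DESeq2, 1691 with DESeq2 and the block, 80 and 76 with limma on log2(FPKM + 1) and log2(FPKM + 0.1), and 18 to 146 with 1 library left out. They numbered 528 without replicate 1 of both groups and 3978 with the block as well, a setting chosen after seeing the data. IGF pathway genes called (0 of 43) numbered 4, 15, 3 and 10 without a filter, with the block, with DESeq2 and with both, 2 without replicate 1 of both groups and 17 with the block as well. Neighbours of IGFBP4 called numbered 1 with the block, with or without replicate 1. Of the 5 genes most like IGFBP4, 2 were shared with a log2(FPKM + 1) profile and 3 without replicate 1. Members called numbered 1 of 8, 6 with the block, and 0 without control siRNA replicate 3 or without INO80 siRNA replicate 3. Those last settings called 18 and 23 genes over the whole table. For INO80 the block changed no call. Depth limits IGFBP1 and IGFBP2, and the cause of these shifts was not tested.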
